A study of Mus musculus with 4 samples.

Results

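The cells described here are tubule and endothelial cells of the aged kidney cortex outside the proximal tubule, the segment in which the Cre recombinase of Tfeb fl/fl KAP mice is meant to act, compared between the aged Tfeb fl/fl KAP library and the aged Tfeb fl/fl library. Cells were taken from barcodes with at least 1000 detected genes and at most 50% of their counts from mitochondrially encoded genes, and with fewer than 1 count of Slc34a1 and Slc7a13 together per 10000 counts. Both genes mark the proximal tubule, Slc34a1 as its sodium-phosphate cotransporter and Slc7a13 as an amino acid transporter of its S3 segment. Tubule cells had at least 3 counts of Slc12a1, Slc12a3 and Aqp2 together, which mark the thick ascending limb, the distal convoluted tubule and collecting duct principal cells. Endothelial cells had at least 3 counts of Pecam1, Emcn and Kdr together. A count is 1 unique molecular identifier (UMI), that is, 1 captured transcript molecule. The rule found 1622 tubule and 538 endothelial cells in the aged control library and 2448 and 969 in the aged KAP library. These were 5493 of the 12922 cells of the aged pair that passed the filters, and of 32407 in the whole series. Of these, 84 cells, 30 in the control and 54 in the KAP library, met both definitions and were counted in both classes.

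The study asked what loss of the transcription factor TFEB from proximal tubule cells does to the kidney with age. Renal cortex of male mice, pooled from 2 or 3 animals per group, was dissociated by warm enzymatic digestion and sequenced from the 3′ ends of transcripts on the 10x Genomics platform, with 1 library per group. Both control groups (Tfeb fl/fl) carried the floxed Tfeb allele without Cre, and both KAP groups (Tfeb fl/fl KAP) carried the same allele with Cre under the androgen-inducible promoter of the kidney androgen-regulated protein gene, which is active mainly in proximal tubule cells of the S3 segment. Young mice were 6 weeks old and aged mice were 24 months old.

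TFEB is a master regulator of lysosomal and autophagy genes. Immediate early genes such as Fos, Egr1 and Atf3 are switched on within minutes of a stimulus in nearly every cell type, and warm digestion of tissue is a well-known stimulus. Glucocorticoid-responsive genes such as Fkbp5, Zbtb16 and Sgk1 follow the level of stress and mineralocorticoid hormones in many cell types at once.

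With 1 library per group there is no replicate and no test: cells of 1 library are not replicates, and a difference between libraries cannot be told apart from one between pools of animals, dissections or captures. All cells of 1 class and 1 library were pooled, and each gene's summed count was expressed as CPM, its share of the pooled total on the usual library-scaled unit. Each log2 ratio of CPM, KAP over control, is given with an exact 95% interval for its pair of counts, and such an interval speaks only of counting error. A gene is called where its mean CPM was at least 20, its log2 ratio was at least 0.5 in size and its interval did not include 0. The words higher and lower are used with that meaning for named genes unless values alone are given. Because the values are shares of a total, fewer expressing cells and less RNA per cell cannot be told apart.

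The summed counts were 29434352 and 40708040 in tubule cells (control and KAP) and 4662049 and 7445697 in endothelial cells. Median counts per cell were 15567.5 and 13956 in tubule cells and 5677.5 and 5029 in endothelial cells, and the median mitochondrial share was 19.9% and 21.0% in tubule cells and 1.72% and 1.95% in endothelial cells. As a check of the class labels, the marker lists were summed without the genes that chose the classes. The other 7 endothelial markers summed to 6031 and 6829 CPM in endothelial cells and 58.4 and 70.3 CPM in tubule cells. The other 7 thick ascending limb markers summed to 11404 and 11986 CPM in tubule cells and 759 and 809 CPM in endothelial cells, the other 6 distal convoluted tubule markers to 3553 and 3103 CPM against 429 and 176 CPM, and the other 7 principal cell markers to 3524 and 3940 CPM against 634 and 624 CPM. The deposited counts had been corrected for free RNA, and 9.41% of the stored entries in the aged control and 12.9% in the aged KAP library had been set to 0. The proximal tubule cut kept 77.2% of control and 86.9% of KAP cells with tubule markers, and 70.1% and 79.8% of those with endothelial markers. Slc34a1 itself, which the rule uses, was at 6.66 and 0.614 CPM in tubule cells. The libraries of the aged pair shared 10 cell barcodes among filtered cells, 1 of them among tubule or endothelial cells.

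Tfeb was measured first. In tubule cells its level was 27.6 CPM in the aged control and 25.4 CPM in the aged KAP library, a log2 ratio of -0.12 (interval -0.25 to 0.02), and in endothelial cells 16.9 and 14.0 CPM, a log2 ratio of -0.28 (-0.71 to 0.16). Both intervals included 0. In the proximal cells of the same libraries, those with at least 1 count of Slc34a1 and Slc7a13 per 10000, the log2 ratio was -0.63. Reads from the 3′ end of a transcript can lie outside the deleted part of Tfeb, so these counts do not measure the deletion directly. Kap, whose promoter drives Cre, was at 1.83 and 6.98 CPM in tubule cells and at 84.1 and 31.3 CPM in endothelial cells. Kap is itself among the proximal tubule markers used below, and it was called lower in endothelial cells of the aged and of the young pair. Whether its counts in endothelial cells were made by those cells was not tested.

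Of 6075 genes tested in tubule cells, 13 were higher (0.214%) and 119 were lower (1.96%) in the aged KAP library. Of 7051 genes tested in endothelial cells, 105 were higher (1.49%) and 323 were lower (4.58%). In tubule cells of at most 20% mitochondrial counts, 43 were higher and 112 lower. The median log2 ratio over all tested genes was -0.06 in tubule and 0.01 in endothelial cells. Among the 5197 genes tested in both classes, 47 were lower in both (0.904%), 3 were higher in both (0.0577%) and 0 were called in opposite directions. The 47 genes were 51.1% of the 92 genes lower in tubule cells and 31.8% of the 148 lower in endothelial cells that were tested in both. Both classes come from the same pair of libraries, so a gene called in both has been seen in 1 pair and not in independent pairs. A gene counts as called in 1 class alone where its log2 ratio was under 0.25 in size in the other class and the intervals did not overlap. By that rule tubule cells alone had 3 genes higher (0.0577%) and 25 lower (0.481%), and endothelial cells alone had 21 higher (0.404%) and 67 lower (1.29%).

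**Figure D1:**
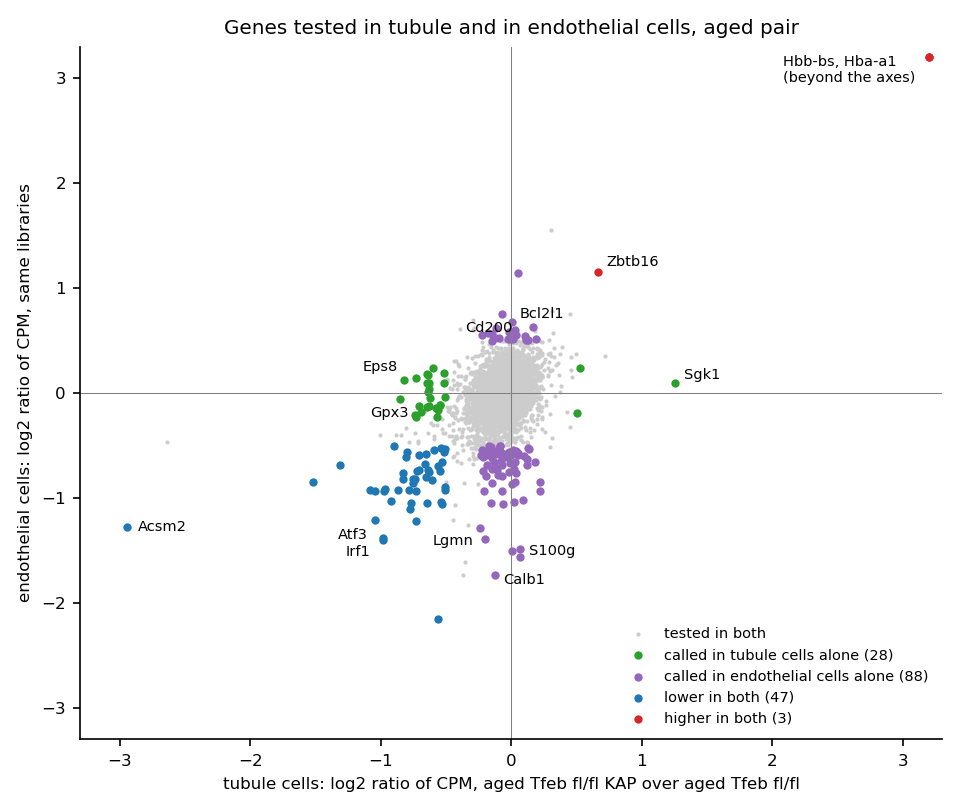
Each point is 1 of the 5197 genes tested in both classes, with its log2 ratio of CPM (aged Tfeb fl/fl KAP over aged Tfeb fl/fl) in tubule cells on the x axis and in endothelial cells on the y axis. The 47 genes lower in both sit at the lower left, Zbtb16 at the upper right, Sgk1 on the right near the horizontal line, and S100g and Calb1 low near the vertical line. Values beyond the axes are drawn at their edge.

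Among the 47 genes lower in both classes were 12 of a list of immediate early genes, and 8 of these were among the 10 genes named for the size of their ratio at a mean of at least 50 CPM. The lowest ratio of the 47 in tubule cells was that of Acsm2, a gene of lower level described further on. Atf3, a stress-induced transcription factor of the CREB family, stood at 724 CPM in tubule cells of the aged control and 351 CPM in the aged KAP library, and at 332 and 588 CPM in young control and young KAP. In endothelial cells the levels were 785 and 340 CPM in aged mice and 746 and 1143 CPM in young mice. The aged KAP library was therefore below the aged control in both classes, whereas the young KAP library was above the young control. The log2 ratio in the aged pair was -1.04 (-1.07 to -1.01) in tubule and -1.21 (-1.28 to -1.14) in endothelial cells.

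Fos, the AP-1 subunit with the highest level of the group, was at 3076 and 1730 CPM in aged tubule cells (control and KAP) and at 2795 and 1588 CPM in aged endothelial cells. In young mice it was at 2177 and 2312 CPM in tubule and 4886 and 4752 CPM in endothelial cells, so the young libraries lay close together and the aged ones apart. The log2 ratio in the aged pair was -0.83 (-0.84 to -0.82) and -0.82 (-0.85 to -0.78). Egr1, a zinc finger factor induced with Fos, was at 1267 and 751 CPM in aged tubule cells and 2266 and 1247 CPM in aged endothelial cells, log2 ratios of -0.75 and -0.86. Fosb, a further AP-1 subunit, had log2 ratios of -0.75 and -0.82, and Nr4a1, an orphan nuclear receptor of the same early wave, had -0.97 and -0.91. Ccn1, a secreted matrix protein that is also immediate early, had -0.83 and -0.77.

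Socs3, which restrains cytokine signalling through JAK and STAT, was at 312 and 147 CPM in aged tubule cells and 326 and 172 CPM in aged endothelial cells, log2 ratios of -1.08 and -0.93. Zfp36, which destabilises cytokine mRNAs, had log2 ratios of -0.79 and -0.93. Irf1, an interferon-induced transcription factor, fell from 144 to 73.0 CPM in tubule and from 219 to 82.9 CPM in endothelial cells, log2 ratios of -0.98 and -1.40. Bhlhe40, a repressor that is part of the circadian clock network, had -1.04 and -0.93. Over all 47 genes the log2 ratio ran from -2.94 to -0.51 in tubule cells, with a median of -0.73, and from -2.16 to -0.51 in endothelial cells, with a median of -0.83.

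As a whole, a list of 28 immediate early genes, 27 of them in the files, had 24 members tested in tubule cells, of which 22 had a ratio below 0, 18 were called lower and 0 were called higher, with a median of -0.70 beside -0.06 for all tested genes. In endothelial cells 25 were tested, 23 had a ratio below 0, 15 were called lower and 0 higher, with a median of -0.67 beside 0.01. Among all genes tested, 1.96% were lower and 0.214% higher in tubule cells, and 4.58% and 1.49% in endothelial cells. Both classes called 12 genes of the list lower, beside 0.904% of all genes tested in both: Fos, Fosb, Junb, Egr1, Atf3, Nr4a1, Zfp36, Btg2, Socs3, Gadd45a, Maff and Ccn1. Klf2, a flow-responsive factor of endothelium, parted the classes, at 163 and 104 CPM in tubule cells, a log2 ratio of -0.65 (-0.71 to -0.59), and at 2719 and 2911 CPM in endothelial cells, a log2 ratio of 0.10 (0.07 to 0.13). Ier3, an early survival gene, was called lower in endothelial cells, with -0.57 (-0.66 to -0.49), and had -0.07 (-0.10 to -0.04) in tubule cells. Its tubule subsets differed, with 0.50 in Slc12a1-led, 0.06 in Slc12a3-led and -0.63 in Aqp2-led cells, that is, those in which Slc12a1, Slc12a3 or Aqp2 had the most counts of these genes.

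The summed level of the 27 genes was 15483 CPM in aged control and 9838 CPM in aged KAP tubule cells, against 10760 and 12468 CPM in young control and young KAP tubule cells. The aged control library was the highest of the 4 and the aged KAP library the lowest. In endothelial cells the order differed: 33232 and 35842 CPM in young control and KAP, 26406 CPM in aged control and 18532 CPM in aged KAP. The median cell had 79.5 counts of these genes per 10000 in aged control and 42.7 in aged KAP tubule cells (young: 56.7 and 63.2), and 232 and 140 in endothelial cells (young: 259 and 335). In the proximal cells of the aged pair, 20 members were tested, 11 were called lower and 1 higher (all tested genes there: 2.03% lower, 1.55% higher), with a median of -0.59.

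**Figure D2:**
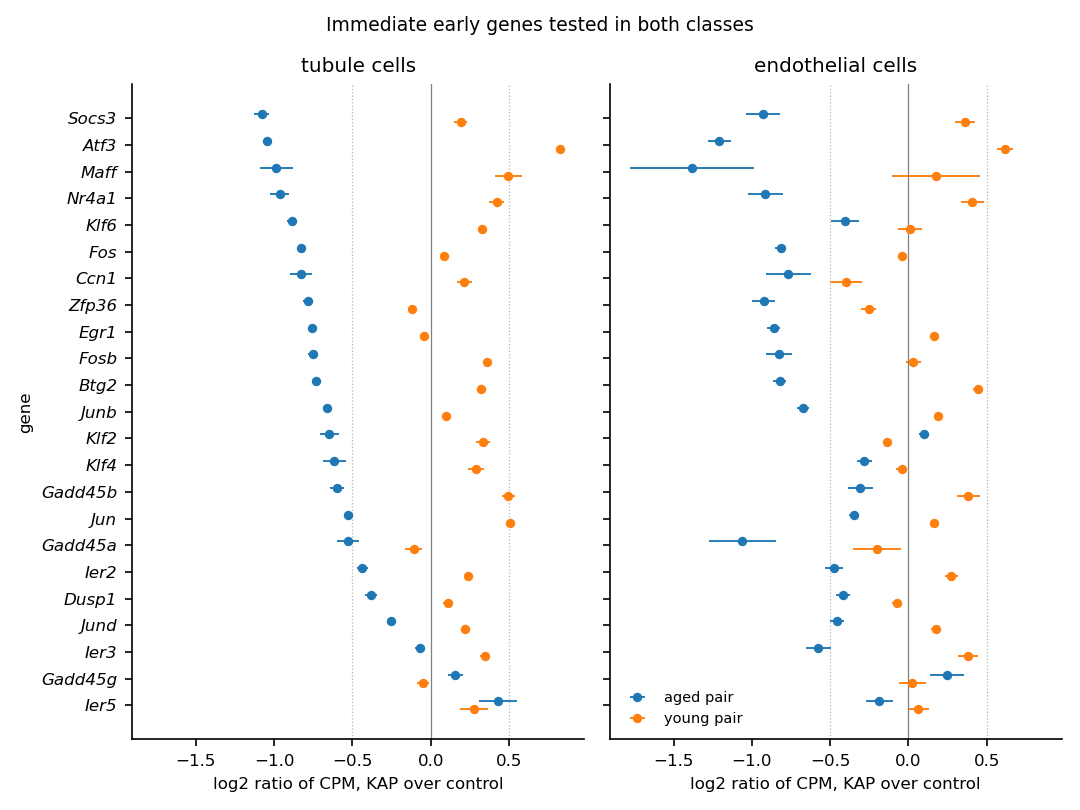
Log2 ratios of CPM (KAP over control) of the immediate early genes tested in both classes, in tubule cells (left) and endothelial cells (right); points are the aged pair (blue) and the young pair (orange), bars are exact 95% counting intervals, and dotted lines mark -0.5 and 0.5. In tubule cells the aged points lie left of the young points for all genes shown except Gadd45g and Ier5, and Klf2 changes sides in endothelial cells.

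In the young pair, whose libraries the aged comparison does not use, most genes of the same list had ratios above 0. In young tubule cells 19 of 24 tested members had a ratio above 0, 2 were called higher and 0 lower, with a median of 0.26 (all tested genes: 0.414% higher and 0.431% lower, median -0.03). In young endothelial cells 18 of 26 were above 0, 1 was called higher and 0 lower, with a median of 0.17 (all tested genes: 1.46% higher and 1.52% lower, median -0.02). Of the 47 genes lower in both classes in aged mice, 31 had a ratio above 0 in young tubule and 30 in young endothelial cells, where 42.3% and 45.9% of all tested genes were above 0. The 31 and 30 are counted over all 47 genes, of which 43 were tested in each young class. The difference between the ages was not tested, since each age has 1 library per genotype.

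The correction for free RNA differed between the libraries at these genes. Of the entries stored for Fos, 24.7% had been set to 0 in the aged control and 38.2% in the aged KAP library, and for Atf3 36.8% and 43.0%. In the young pair the shares were 9.42% and 31.7% for Fos and 12.3% and 44.3% for Atf3. Over all stored entries the shares were 9.41% and 12.9% in the aged pair and 2.90% and 12.5% in the young pair. The part of the correction in the aged result was not tested. Cells of at most 20% mitochondrial counts gave a median of -0.52 for the list in tubule cells in place of -0.70. With cells carrying markers of other lineages left out, the medians were -0.68 in tubule and -0.69 in endothelial cells.

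The promoters of some of the genes lower in both classes are shown because these genes moved together. Some of the immediate early genes among them are known targets of cyclic AMP and serum response signalling. RefSeq windows of 250 bases before the start site (build GRCm38.p6) were found for 39 of the 47 genes and 4215 of the 5197 tested genes, and each was searched on both strands for the cyclic AMP response element TGACGTCA, the E-box CACGTG that TFEB and its relatives can bind, and the CArG box of serum response factor. The response element was in 4 of the 39 genes (10.3%) and in 3.70% of the tested genes, CACGTG in 9 (23.1%) and 10.6%, and the CArG box in 1 (2.56%) and 1.38%. A gene counted if any of its windows matched, and some genes had several windows. Over all genes with a window in the reference the shares were 1.77%, 6.86% and 1.62%, and over single windows 1.55%, 6.02% and 1.47%. These are descriptions of short windows, and no site was measured. Capitals in the sequences mark the matches, which lie 166 bases before the start in Btg2 (response element), 191 (CACGTG) and 29 (response element) bases before it in Maff, and 58 bases before it in Zfp36 (CArG box). The windows are chr1:134079156-134079405 (minus strand) for Btg2, chr15:79347270-79347519 (plus strand) for Maff and chr7:28379229-28379478 (minus strand) for Zfp36.
Btg2: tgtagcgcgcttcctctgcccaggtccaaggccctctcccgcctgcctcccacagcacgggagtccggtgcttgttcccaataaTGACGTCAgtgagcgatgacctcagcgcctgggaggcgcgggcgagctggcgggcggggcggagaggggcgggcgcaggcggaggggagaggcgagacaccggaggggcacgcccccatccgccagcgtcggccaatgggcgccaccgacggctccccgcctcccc
Maff: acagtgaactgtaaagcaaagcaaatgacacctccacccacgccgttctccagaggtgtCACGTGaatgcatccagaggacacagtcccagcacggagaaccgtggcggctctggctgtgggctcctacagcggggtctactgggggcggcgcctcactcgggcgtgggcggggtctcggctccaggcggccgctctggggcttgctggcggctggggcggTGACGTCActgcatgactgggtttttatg
Zfp36: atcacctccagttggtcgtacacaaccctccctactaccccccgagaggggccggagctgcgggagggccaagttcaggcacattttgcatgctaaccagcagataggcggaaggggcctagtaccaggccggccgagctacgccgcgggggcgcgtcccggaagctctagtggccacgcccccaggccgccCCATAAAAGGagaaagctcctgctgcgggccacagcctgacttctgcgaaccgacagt
Btg2, an antiproliferative early gene, was at 1937 and 1164 CPM in aged tubule cells and 2429 and 1373 CPM in aged endothelial cells. Maff, a small Maf transcription factor, had log2 ratios of -0.99 and -1.38 in the aged pair.

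Tissue subsets of each class were measured apart, since a class mixes cell types whose shares can differ between libraries. Tubule cells were led by Slc12a1 in 28.1% of control and 29.2% of KAP cells, by Slc12a3 in 47.5% and 42.9%, and by Aqp2 in 24.4% and 27.9%. Median counts per cell were 15494 and 14311, 14333.5 and 13395.5, and 22060 and 14557 in the same order. Atf3 had log2 ratios of -0.91, -0.92 and -1.09 in these subsets, Fos -0.57, -0.91 and -0.84, and Socs3 -0.95, -1.25 and -1.05. Endothelial cells with Ehd3 and no Plvap, the glomerular pattern, were 57.8% and 61.6% of the class, and those with Plvap and no Ehd3, the peritubular pattern, were 9.29% and 8.77%, or 50 and 85 cells. Atf3 had -1.23 and -1.35 there, Fos -0.85 and -0.39, and Socs3 -0.90 and -0.41. These 3 genes had ratios below 0 in all 5 subsets. With the 3 tubule subsets weighted equally the list median was -0.68.

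**Figure D3:**
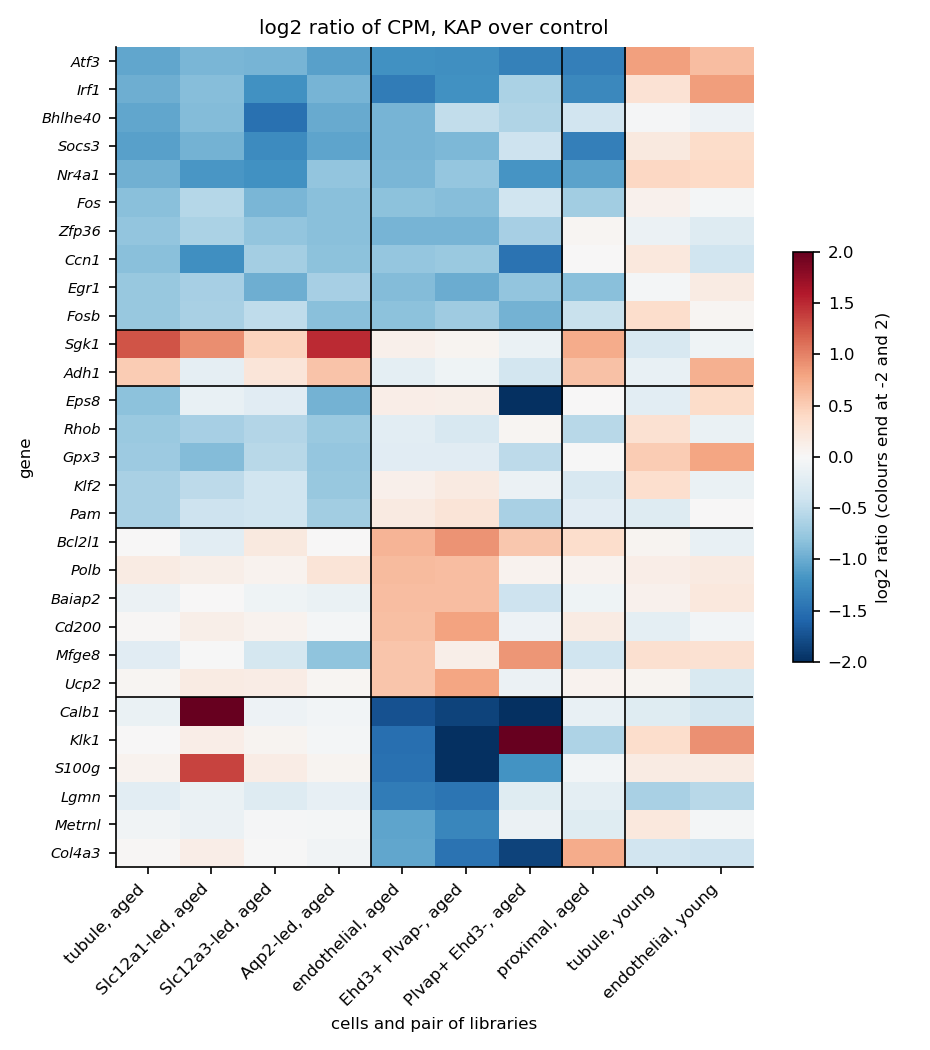
Log2 ratio of CPM (KAP over control, colour) of the named genes lower in both classes, called in tubule cells alone and called in endothelial cells alone (row blocks from the top), in each class and subset of the aged pair, in aged proximal cells and in both classes of the young pair (columns). The top block is blue in the aged tubule and endothelial columns and pale or red in most of the young columns, and Sgk1 is darkest in the Aqp2-led cells.

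Heat shock genes were called lower in 2 of 29 in aged tubule and 4 of 29 in aged endothelial cells, and most had ratios below 0. Of 29 genes for chaperones, 27 had a ratio below 0 in aged tubule cells with a median of -0.20, and Hsph1 (-0.51) and Dnajb1 (-0.65), both co-chaperones of HSP70, were called lower. In endothelial cells 28 of 29 were below 0 with a median of -0.30, and Hspa1b, an inducible HSP70, fell from 189 to 98.7 CPM (-0.94) and Hspb1, a small heat shock protein, from 1374 to 926 CPM (-0.57). Hsph1 and Dnajb1 were called lower there too, and so in both classes. Of all tested genes 30.4% were above 0 in aged tubule and 52.1% in aged endothelial cells, and 1.96% and 4.58% were called lower. In young endothelial cells 29 of 29 chaperone genes were above 0 with a median of 0.50, and 14 were called higher (all tested genes: 45.9% above 0, 1.46% higher). Hsph1 was at 43.6 and 101 CPM there, the reverse of its 89.4 and 61.9 CPM in aged endothelial cells.

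Interferon and MHC class I genes were below 0 in 10 of 11 tested in aged tubule cells (median -0.20, with Ifitm3, Irf1 and Irf9 called lower) and in 26 of 29 tested in aged endothelial cells (median -0.29, with 10 called lower). Over all tested genes 30.4% and 52.1% were above 0 in these classes, and 1.96% and 4.58% were called lower. Isg15, a ubiquitin-like interferon product, was at 92.9 and 51.4 CPM in aged endothelial cells and 113 and 165 CPM in young ones. Ifit3, an antiviral RNA-binding protein, was at 55.1 and 31.3 CPM in aged and 135 and 131 CPM in young endothelial cells. Irf9, the DNA-binding part of the interferon-activated ISGF3 complex, was lower in both classes, with -0.53 and -0.52. Without cells of other lineages 9 of the 29 genes were called lower in endothelial cells (all tested genes there: 1.17% higher, 3.15% lower), and 3 of 11 in tubule cells (0.231% higher, 1.85% lower).

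Clock genes were measured because Bhlhe40 stood among the genes lower in both. In tubule cells 8 were tested and Nr1d2 (-0.74), Tef (-0.59) and Bhlhe40 were called lower. In endothelial cells 9 were tested and Dbp (-1.45), Tef (-0.54) and Bhlhe40 were called lower. Over all tested genes 1.96% were called lower in tubule and 4.58% in endothelial cells. Dbp, an output factor of the clock that peaks once a day, was at 35.0 and 12.8 CPM in aged endothelial cells and 27.9 and 11.3 CPM in aged tubule cells, where its mean fell short of 20 CPM. In young mice it was at 6.25 and 7.86 CPM in endothelial and 4.05 and 5.41 CPM in tubule cells, lower than in either aged library. The core factor Clock was at 60.2 and 60.0 CPM in aged tubule cells. The part of the hour of collection was not tested.

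The 3 genes higher in both classes were Zbtb16, Hba-a1 and Hbb-bs. Zbtb16, a zinc finger factor induced by glucocorticoids, was at 15.9 and 25.2 CPM in aged tubule cells, a log2 ratio of 0.66 (0.51 to 0.83), and at 81.3 and 180 CPM in aged endothelial cells, 1.15 (0.98 to 1.32). In young mice it was at 3.81 and 3.69 CPM in tubule and 4.04 and 4.83 CPM in endothelial cells, below both aged libraries. With cells of other lineages left out the ratios were 0.70 and 1.01, with levels of 15.0 and 24.4 CPM in tubule cells, a mean under the 20 CPM limit. The globin genes came from few cells: all 7447 counts of Hbb-bs in aged KAP tubule cells were in 4 cells, and its 8489 counts in aged KAP endothelial cells were in 7 cells. Hbb-bs had 78 counts in 1 tubule cell and 0 counts in endothelial cells of the aged control. When cells carrying markers of blood, podocyte or immune lineages were left out, Hbb-bs had 0 counts in both classes of both aged libraries. The blood markers were Hba-a1 and Hbb-bs themselves, so this follows from how those cells were chosen.

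Other glucocorticoid-responsive genes were called higher in 1 class or the other. Sgk1, a kinase that raises sodium uptake under aldosterone and glucocorticoids, was at 66.5 and 159 CPM in aged tubule cells and 176 and 141 CPM in young tubule cells. The aged control was the lowest of the 4 libraries, and the other 3 lay between 141 and 176 CPM. The log2 ratio in the aged pair was 1.26 (1.18 to 1.33) in tubule cells and 0.10 (0.05 to 0.14) in endothelial cells, where Sgk1 was at 1506 and 1610 CPM. Among tubule subsets the ratio was 0.93 in Slc12a1-led, 0.44 in Slc12a3-led and 1.49 in Aqp2-led cells. The Aqp2-led cells were not principal cells alone, since all 8 intercalated cell markers reached the limit for testing there, and 5 were called lower. The glucocorticoid-responsive list as a whole did not share the order of Sgk1 among the subsets. In Aqp2-led cells 11 of 15 tested had a ratio below 0, with a median of -0.31. Sgk1 was called higher there and Dusp1 (-0.80), Klf9 (-0.56), Mt2 (-0.56) and Errfi1 (-0.86) were called lower. All genes tested in these cells had 0.426% higher and 3.27% lower, with a median of -0.05. In Slc12a1-led cells 10 of 13 were above 0, with a median of 0.29, and 6 were called higher and 0 lower (all tested genes: 0.51% and 1.64%). In Slc12a3-led cells 8 of 14 were above 0, with a median of 0.09, and 3 were called higher and 0 lower (all tested genes: 0.405% and 1.66%). Cdkn1a, an inhibitor of the cell cycle, was also called in tubule cells alone, at 37.0 and 53.2 CPM (0.52) against 673 and 795 CPM (0.24) in endothelial cells. Pdk4, which slows pyruvate oxidation, was at 30.6 and 45.4 CPM in tubule cells (0.57).

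In endothelial cells Fkbp5, a co-chaperone of the glucocorticoid receptor and a standard readout of it, was at 24.0 and 70.4 CPM in the aged pair (1.55, 1.25 to 1.86) and at 24.5 and 17.5 CPM in the young pair. In aged tubule cells it was at 33.2 and 40.9 CPM (0.30, 0.19 to 0.42), under the limit for a call. Ddit4, a stress-induced inhibitor of mTORC1, was at 48.3 and 81.3 CPM (0.75) in aged and 83.5 and 84.2 CPM in young endothelial cells. Sult1a1, a sulfotransferase (0.78), and Map3k6, a stress kinase (0.86), were also called higher there. Over the whole list, 4 of 17 tested genes were called higher in tubule cells and 5 of 16 in endothelial cells, with 0 called lower in either class as a whole. Over all tested genes 0.214% and 1.49% were higher and 1.96% and 4.58% lower. The medians of the list were -0.04 and 0.22, beside -0.06 and 0.01 for all tested genes. Dusp1 and Nfkbia, the members with levels among the highest, had ratios of -0.38 and -0.18 in tubule cells, both under the limit for a call. In the young pair 0 of 16 were called in tubule cells and 1 of 14 was called higher in endothelial cells. In the proximal cells of the aged pair 10 were tested, Fkbp5 and Sgk1 were called higher and 0 were called lower. The median there was 0.23 (all tested genes: 1.55% higher, 2.03% lower, median -0.02).

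**Figure D4:**
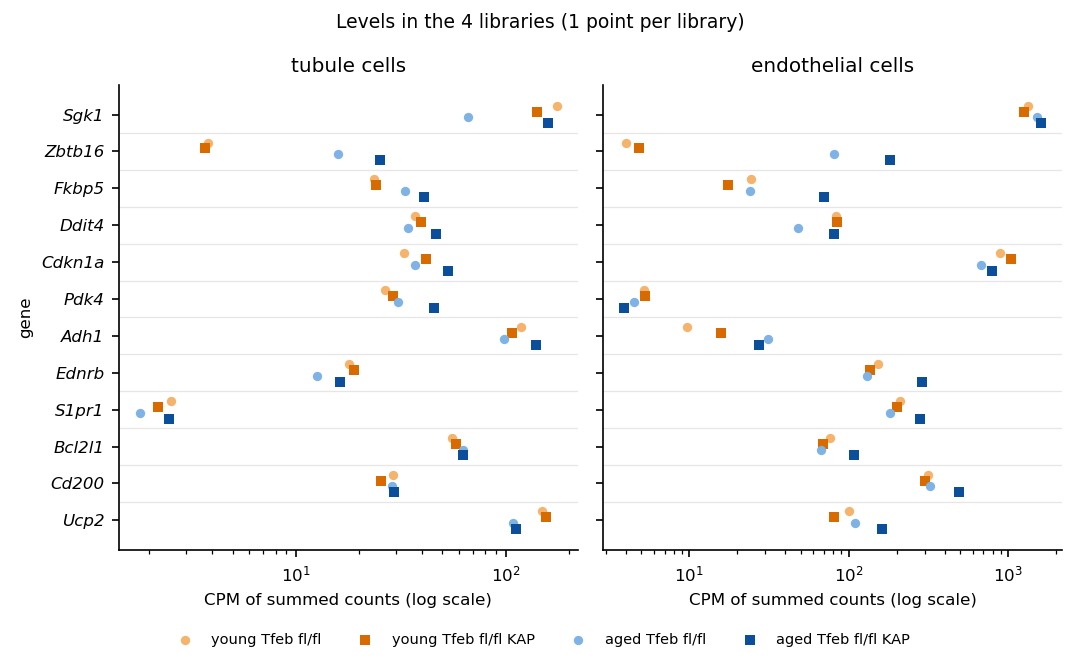
CPM of summed counts (log scale) of 12 genes called higher in at least 1 class of the aged pair, in tubule cells (left) and endothelial cells (right), with 1 point for each of the 4 libraries. Sgk1 sets the aged control apart in tubule cells, Fkbp5 and Ednrb set the aged KAP library apart in endothelial cells, and Zbtb16 separates both aged libraries from both young ones.

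Among other genes called in tubule cells alone, Adh1, an alcohol dehydrogenase that also oxidises retinol, was higher, at 98.2 and 140 CPM (0.51, 0.44 to 0.57). It was at 31.3 and 27.4 CPM in endothelial cells, and it was also called higher in the proximal cells of the aged pair. Eps8, an actin regulator of microvilli, was lower, at 143 and 80.9 CPM (-0.82), and the ratio lay in the Aqp2-led cells (-0.95) more than in the Slc12a1-led (-0.15) or Slc12a3-led cells (-0.23). Pam, which amidates peptide hormones, had -0.65 and 0.18, and Rhob, a small GTPase that is itself induced early, had -0.74 and -0.21. Gpx3, a secreted glutathione peroxidase made chiefly by the proximal tubule, was at 467 and 282 CPM (-0.73).

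Markers of the proximal tubule were measured beside these values. Their list of 24 genes holds Gpx3 and Acsm2 themselves, and also Slc34a1 and Slc7a13, which the rule keeps low. The sums are therefore not separate from those genes. The list summed to 723 CPM in aged control and 428 CPM in aged KAP tubule cells, and to 1231 and 1080 CPM in endothelial cells, beside 72924 and 86235 CPM in the proximal cells. Slc7a13, which the rule uses, and Miox were at 0 in the KAP tubule cells. Acsm2, an acyl-CoA synthetase of the proximal tubule, was lower in both classes, at 37.7 and 4.91 CPM in tubule and 42.9 and 17.7 CPM in endothelial cells, and so was Slc27a2, a fatty acid transporter, in endothelial cells (31.5 and 14.4 CPM). Kap, also of the list, was called lower in endothelial cells as well. Cyp2e1, a cytochrome P450 of the same list, was called higher in endothelial cells (27.7 and 39.5 CPM, 0.51). The part of proximal RNA in the calls for Gpx3 and Acsm2 was not tested. Cells with no count at all of Slc34a1 or Slc7a13 gave a median of -0.75 for the immediate early list in tubule cells, in place of -0.70.

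Genes of intercalated cells, the acid-base cells of the collecting duct, were lower in the tubule class. All 8 tested markers had a ratio below 0, where 30.4% of all tested genes were above 0. Of these markers 5 were called: Atp6v0d2 (-0.70), Aqp6 (-0.66), Slc4a1 (-0.70), Slc4a9 (-0.67) and Insrr (-0.75), beside 1.96% lower over all tested genes. The summed level of the 8 markers was 1151 and 831 CPM, and cells with at least 3 counts of them were 12.4% of control and 8.42% of KAP tubule cells. The class is chosen on other genes, so such cells enter it only with counts of Slc12a1, Slc12a3 or Aqp2, and their number and their RNA cannot be told apart here. Pvalb, a calcium buffer of the early distal convoluted tubule, was at 609 and 356 CPM in tubule cells (-0.77), with -0.73 in the Slc12a3-led cells. Slc12a3 was at 2522 and 2340 CPM in tubule cells, but it helps choose the class and that subset, so its level is partly set by the rule. Ion transport genes of the distal nephron as a list had ratios on both sides of 0: 19 of 37 were above 0, with a median of 0.00, and Aqp4, a basolateral water channel (0.52), and Pvalb were the called members. Of all tested genes 0.214% were called higher and 1.96% lower.

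Of the 21 genes higher in endothelial cells alone, 6 with a mean of at least 50 CPM are named for the size of their ratio. Bcl2l1, which protects cells from apoptosis, was at 67.1 and 108 CPM (0.68, 0.49 to 0.87) beside 62.4 and 62.5 CPM in tubule cells. Ucp2, an uncoupling protein of the inner mitochondrial membrane, was at 110 and 161 CPM (0.55) in aged and 101 and 81.4 CPM in young endothelial cells. Cd200, an immune-restraining surface protein, was at 324 and 492 CPM (0.60), and Mfge8, a bridge for the uptake of dying cells, at 229 and 337 CPM (0.56). Polb, a DNA repair polymerase, had 0.63 and Baiap2, an actin adaptor, 0.62. Without cells of other lineages Cd200 and Mfge8 had ratios of 0.49 and 0.48, just under the limit for a call. Of a list of endothelial function genes, 37 were tested in endothelial cells, 28 had a ratio above 0, 2 were called higher (Ednrb and S1pr1) and 3 lower (Icam1, Sele and Cd36), with a median of 0.10. Over all genes tested there 52.1% were above 0, 1.49% were higher and 4.58% lower, with a median of 0.01. Ednrb, the endothelin B receptor, was at 130 and 287 CPM in aged (1.14, 1.01 to 1.27) and 152 and 137 CPM in young endothelial cells, with 1.33 in the Ehd3 cells but -0.55, called lower, in the 85 and 50 Plvap cells of the KAP and control libraries. S1pr1, which guards the vessel barrier, was at 181 and 281 CPM (0.63). Sele, the selectin that captures leukocytes, was at 42.7 and 11.3 CPM (-1.92, -2.31 to -1.54), and Vcam1, an adhesion molecule of the injury list, at 219 and 79.2 CPM (-1.47). Icam1, a further adhesion molecule, was lower in both classes, at 203 and 133 CPM (-0.61) in endothelial and 39.3 and 22.5 CPM (-0.81) in tubule cells.

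Myeloid, podocyte and lymphocyte markers were at lower levels in the endothelial class of the aged KAP library, and erythroid markers at a higher one (0.214 and 2027 CPM). All 10 tested myeloid markers were called lower, beside 4.58% of all genes tested in the class, with a median of -1.61, and all 11 of the list were detected in both libraries. Their summed level was 1863 CPM in the aged control and 678 CPM in the aged KAP library, beside 74.9 and 122 CPM in the young pair, and 37 of 538 cells (6.88%) and 46 of 969 cells (4.75%) had at least 3 of their counts. Lyz2, the lysozyme of macrophages and neutrophils, was at 478 and 135 CPM, and C1qa, a complement subunit of macrophages, at 236 and 99.5 CPM. Podocyte markers were called lower in 7 of 8, with a summed level of 2008 and 1461 CPM. The median cell differed little, with 9.39 and 9.20 of their counts per 10000, and 75.8% and 71.1% of cells had at least 3. Without cells of other lineages 3 podocyte markers were tested, of which 0 were called lower and 1 higher. MHC class II genes were called lower in 5 of 5 (median -0.90), among them Cd74, the invariant chain, at 750 and 391 CPM. In the young pair Cd74 was at 40.8 and 235 CPM. Lymphocyte and plasma cell markers summed to 106 and 53.7 CPM, and fibroblast and mural cell markers to 233 and 218 CPM, of which Rgs5, a pericyte gene, was called higher (0.62) and Acta2, smooth muscle actin, lower (-0.94).

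When cells with at least 3 counts of defining markers of myeloid, lymphoid, podocyte or erythroid cells were left out, 495 of 538 control and 917 of 969 KAP endothelial cells remained. Of the 323 genes lower in endothelial cells 147 were still called lower and 2 were called higher (Cdkn1c, from -0.55 to 0.56, and Lgals1, from -0.53 to 0.56), and of the 105 higher 63 were still called. In tubule cells 109 of 119 and 10 of 13 were still called. Lgmn, a lysosomal protease of macrophages and tubules, moved from -1.39 to -0.19, Metrnl, a secreted cytokine-like protein, from -1.06 to -0.27, and Col4a3, a basement membrane collagen made by podocytes, from -1.04 to -0.28. Atf3 (-1.30), Fos (-0.82), Sele (-1.86) and Ednrb (0.99) were still called.

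**Figure D5:**
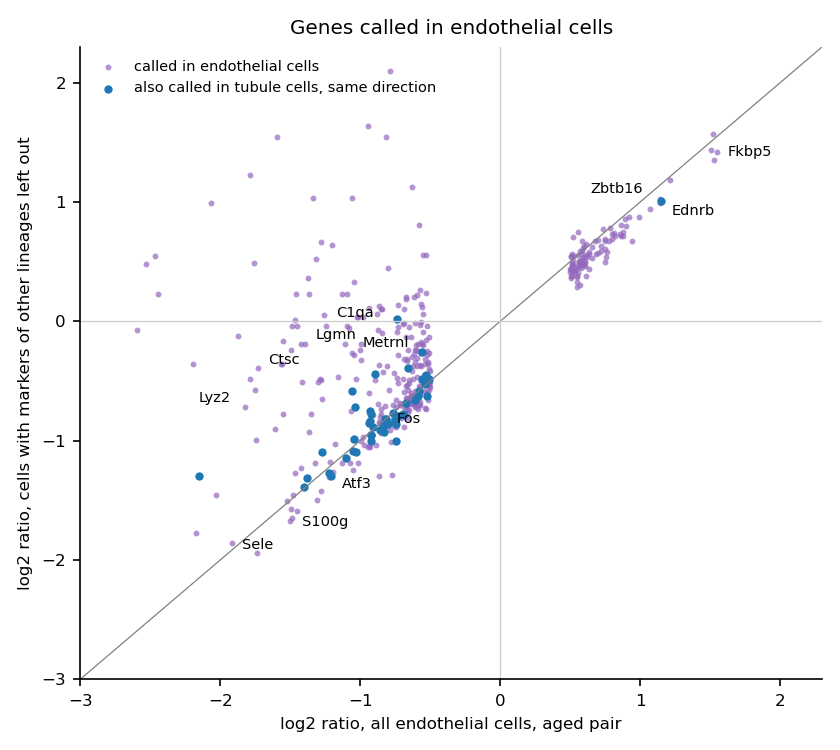
Log2 ratios (aged KAP over aged control) of genes called in endothelial cells, with all cells of the class on the x axis and with cells carrying markers of myeloid, lymphoid, podocyte or erythroid lineages left out on the y axis; the line marks equal values. Fos, Atf3, Zbtb16 and Fkbp5 lie near the line, and Lgmn and Metrnl lie near 0 on the y axis. C1qa also lies near 0 there, but it was itself among the markers that chose the cells left out. The 6 genes beyond the axes or with no ratio and 4 with a count of 0 in 1 library are not shown.

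Of the ion transport genes of the distal nephron, 24 were tested in endothelial cells, and Slc8a1, Calb1, S100g and Pvalb were called lower, with 0 called higher (all tested genes: 4.58% lower, 1.49% higher). Calb1, the calcium buffer calbindin, was at 282 and 84.6 CPM in endothelial cells (-1.74, -1.88 to -1.60) and at 2258 and 2069 CPM in tubule cells (-0.13). S100g, a further calcium-binding protein, was at 1565 and 558 CPM (-1.49) beside 11424 and 11992 CPM (0.07), and Klk1, the kallikrein of the connecting tubule, at 1060 and 373 CPM (-1.51) beside 7104 and 7150 CPM (0.01). The levels in endothelial cells were thus a small part of those in tubule cells in both libraries. Of the stored S100g entries, 87.7% had been set to 0 in the aged control and 87.0% in the aged KAP library by the correction for free RNA. Cells that met both definitions were left out as an alternative, and the ratios were then -1.82, -3.48 and -2.32 for Calb1, S100g and Klk1. Markers of the distal convoluted tubule as a list summed to 700 and 411 CPM in endothelial cells, those of the thick ascending limb to 841 and 921 CPM and those of principal cells to 853 and 860 CPM. Without cells of other lineages 10 of the 24 ion transport genes were called lower and 0 higher, with a median of -0.35. Markers then called lower were 3 of 5 (median -0.91), 4 of 7 (-0.64) and 0 of 5 (-0.24) in the same order of lists. All genes tested there had 3.15% lower and 1.17% higher. Whether doublets or free RNA carry these counts was not tested.

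Few genes of TFEB's own programme were called in either class. Of 46 lysosomal genes tested in tubule cells, where 30.4% of all tested genes were above 0, 36 had a ratio below 0. Their median was -0.10 beside -0.06 for all genes. In endothelial cells, where 52.1% of all tested genes were above 0, 34 of 51 lysosomal genes were below 0 with a median of -0.12. Ctsb, Ctsc, Ctss and Lgmn, cathepsins and legumain that macrophages express strongly, were called lower there (all tested genes: 4.58% lower). Without cells of other lineages that median was 0.05 over the 49 genes then tested and 0 were called. Lgmn was also called lower in both classes of the young pair, where Man2b1 was called higher in endothelial cells. All genes tested in the young pair had 0.431% lower in tubule cells, and 1.52% lower and 1.46% higher in endothelial cells. Lamp1, the main lysosomal membrane protein, was at 521 and 505 CPM in tubule and 661 and 585 CPM in endothelial cells. Of the autophagy genes 23 and 27 were tested and 0 were called in either class, with Map1lc3b, the LC3 protein of autophagosomes, at 221 and 210 CPM and at 343 and 342 CPM. Regulators of TFEB in the mTORC1 pathway had 0 of 14 and 0 of 15 called, with Rheb, the GTPase that activates mTORC1, at 184 and 180 CPM in tubule cells.

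Most genes of oxidative phosphorylation had ratios slightly above 0. Of 77 nuclear genes of oxidative phosphorylation, 73 had a ratio above 0 in aged tubule cells, where 30.4% of all tested genes did, and the median was 0.09, with a largest ratio of 0.41 and 0 genes called. In endothelial cells 56 of 77 were above 0, where 52.1% of all tested genes were, with a median of 0.06, and Ndufa4l2, a hypoxia-induced member that pericytes express strongly, was called (11.4 and 32.6 CPM, 1.52). Without cells of other lineages 45 of 76 nuclear genes were above 0 there, with a median of 0.03 and 0 called. The mitochondrially encoded genes were above 0 in 12 of 12 in both classes, with medians of 0.20 and 0.31. These ratios largely restate the mitochondrial share of the summed counts, 17.9% and 20.2% in tubule and 3.76% and 4.66% in endothelial cells. In the 50 control and 85 KAP cells with Plvap and no Ehd3 the median was 1.24, and 11 of 12 were called higher. Of all genes tested in those cells 2.81% were higher. The complex I subunit mt-Nd2 was called in endothelial cells (0.58) but stood at 0.49 without cells of other lineages. In the young pair the mitochondrially encoded genes were above 0 in 8 of 13 in tubule and 3 of 12 in endothelial cells. In the young pair the nuclear genes were above 0 in 53 of 77 in tubule and 42 of 77 in endothelial cells. Cox8a, a subunit of cytochrome c oxidase, was at 3097 and 3557 CPM in aged and 2874 and 3297 CPM in young tubule cells, a log2 ratio of 0.20 at both ages. Fatty acid degradation genes had a median of 0.04 over 29 in tubule and 0.06 over 25 in endothelial cells, with Adh1 the called member, and Acadm, the medium-chain dehydrogenase, was at 299 and 285 CPM in tubule cells. Citrate cycle genes were below 0 in 15 of 25 in tubule and 16 of 26 in endothelial cells, and peroxisome genes in 14 of 23 and 12 of 26, with 0 called.

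Cytosolic ribosomal proteins were above 0 in 58 of 79 in tubule and 67 of 79 in endothelial cells (all tested genes: 30.4% and 52.1%), with 0 called and medians of 0.04 and 0.06. Metallothioneins, zinc-binding proteins that glucocorticoids also induce, were not called: Mt1 was at 2059 and 1965 CPM in tubule (-0.07) and 349 and 336 CPM in endothelial cells (-0.05). Of the injury markers, 9 were tested in tubule cells, where Cdkn1a was called higher, and 13 in endothelial cells, where 0 were called higher and 4 lower: Vcam1, the chemokines Ccl2 (-2.53, but 0.48 without cells of other lineages) and Cxcl1 (-1.32), and Spp1, the secreted protein osteopontin (-0.78). Spp1 was not called in tubule cells, where it was at 3008 and 2800 CPM (-0.10). Among all genes tested, 0.214% were higher in tubule cells, and 1.49% were higher and 4.58% lower in endothelial cells. Lipid handling in endothelium, with Fabp4, a fatty acid carrier of capillaries, at 1027 and 1225 CPM (0.25) and Lpl, lipoprotein lipase, at 612 and 785 CPM (0.36), stayed under the limit for a call. Without cells of other lineages Lpl was at 0.59 and past it. Cd36, the fatty acid translocase, was called lower (from 74.2 CPM in the control, -0.57), but was at -0.03 without those cells.

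Abca13 and Gm42418 were called lower in KAP than in control libraries in both classes at both ages, and were chosen after their values were seen. Abca13, a large ABC transporter of lipids, was at 684 and 361 CPM in aged tubule cells, 57.7 and 28.2 CPM in aged endothelial cells, 453 and 246 CPM in young tubule cells and 47.5 and 30.3 CPM in young endothelial cells. Its log2 ratios were -0.92, -1.03, -0.88 and -0.65. Gm42418, a predicted gene whose reads overlap ribosomal RNA, was at 2885 and 1007 CPM in aged and 1864 and 437 CPM in young tubule cells, and its log2 ratios in the same order were -1.52, -0.84, -2.09 and -0.51. The libraries of the pairs are separate, and the same direction at both ages was not tested.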

How the data were processed

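Single-cell RNA-seq libraries of renal cortex, 1 for each of 4 groups, were measured, and the aged pair was compared here with the young pair beside it. The authors aligned reads to mm10 and counted unique molecular identifiers with Cell Ranger 6.0.0, corrected the counts for ambient RNA with SoupX and worked in Seurat 4.4.0. The deposited matrices hold whole-number counts per gene and barcode, and entries that the correction set to 0 are still stored. The accompanying deposited files hold other content, the gene names and barcodes.

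Samples were grouped by the labels. Classes, sums, CPM, calls and exact (Clopper-Pearson) 95% intervals were computed as given in the report, in Python 3.11.15 with numpy 2.4.6, scipy 1.17.1, pandas 2.3.3, scanpy 1.11.5 and matplotlib 3.10.9. No test was run, since each group is 1 library. A gene at 0 counts in a library was given a floor of 3 counts there. The calling step was tested on simulated data. Doublets were kept; leaving out Scrublet calls (0.8% expected per 1000 cells) was 1 of 11 other settings tried, and 1 more was added after seeing the data.

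Genes were named by a rule: Tfeb, Kap and the genes that choose the classes; up to 10 per direction called in both classes and up to 6 called in 1 class alone, by size of the ratio with a mean of at least 50 CPM; and, of 31 gene lists, the called members and the 4 of highest level. Predicted genes were not to be named. Other genes named in the text, Abca13, Gm42418, Gm26532 and Lgals1 among them, were chosen after their values were seen. The members and the lists were chosen with earlier results of these data known. A few genes that this rule names are not reported here.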

Additional observations from a re-analysis of the deposited data

Results flagged for a closer look

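Atf3, the stress-induced transcription factor, was called lower in both classes of the aged pair and higher in both classes of the young pair, where its log2 ratio in tubule cells was 0.82. Gm26532, a predicted gene, had the same pattern, with 30.8 and 19.7 CPM in tubule cells of the aged control and aged KAP library and 21.0 and 32.7 CPM in the young pair, a log2 ratio of 0.64 in young tubule cells. In endothelial cells Gm26532 was at 136 and 65.4 CPM in the aged and 148 and 224 CPM in the young pair. Each age has 1 library per genotype, so the difference between the ages was not tested.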

How the results depend on the processing

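No paired analysis was possible because each group has 1 library and the labels give no replicate numbers. Of the counts and genes named for their size, none reversed, but several changed in size. Some list medians near 0 or resting on few genes changed sign. In endothelial cells without other lineages the lysosomal median went from -0.12 to 0.05 and that of podocyte markers from -0.93 (8 tested) to 0.22 (3 tested). Leaving out other lineages turned Cdkn1c and Lgals1 from lower to higher in endothelial cells. The number of genes higher in tubule cells (13) was 25 with mitochondrially encoded genes left out of the total, 22 with ratios centred on the median, 43 in cells of at most 20% mitochondrial counts and 28 with the mean of per-cell CPM. The number lower was 118, 90, 112 and 84 under the same settings. Genes higher in both classes (3) numbered 5 without mitochondrially encoded genes, 6 in cells of at most 20% mitochondrial counts, 1 without cells of both classes, 1 without Scrublet calls and 0 without other lineages, an alternative chosen after seeing the data. Of the 47 genes lower in both, between 31 and 45 were lower in both under the 9 alternatives that changed scaling or cells. Genes called in tubule cells alone (28) numbered 14 with the mean of per-cell CPM.

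A limit of 50 CPM gave 4 higher and 66 lower genes in tubule cells, 44 and 138 in endothelial cells, 1 and 20 in both, and 11 and 38 in tubule or endothelial cells alone. With no limit these were 342 and 1061, 467 and 1263, 40 and 317, and 125 and 267, many resting on few counts. A log2 ratio of at least 1 gave 3 and 10, 14 and 99, 2 lower in both, and 1 and 11.

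The immediate early median in tubule cells (-0.70) was -0.66 without mitochondrially encoded genes, -0.63 centred, -0.74 without cells of both classes, -0.75 with no count of Slc34a1 or Slc7a13, -0.52 in cells of at most 20% mitochondrial counts, -0.58 with the mean of per-cell CPM and -0.68 with subsets weighted equally. The median of nuclear oxidative phosphorylation genes there (0.09) was 0.13 without mitochondrially encoded genes, 0.16 centred and 0.048 with the mean of per-cell CPM, and that of fatty acid degradation (0.04) was 0.10 centred. Klf2 in tubule cells was at -0.47 in cells of at most 20% mitochondrial counts. With the mean of per-cell CPM, Baiap2, Cd200 and Mfge8 in endothelial cells were at 0.49, 0.41 and 0.33. The cause of these shifts was not tested.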
